A study of Homo sapiens with 6 samples.

Results

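The phagocyte-type NADPH oxidase was followed through 5 of its genes, CYBB, CYBA, NCF1, NCF4 and RAC2, in REH cells with and without silencing of the ETV6/RUNX1 fusion. The genes were chosen on the knockdown contrast itself, with the rise of CYBB already known, and the question was whether that rise is shared by the other subunits. They are 5 of 19721 genes that could be named on the catalogue probes of the array, and 9 catalogue probes carry their RefSeq accessions: 1 for CYBB, 1 for CYBA, 4 for NCF1, 1 for NCF4 and 2 for RAC2. All 9 probes were well above background on all 6 arrays and all 9 passed the filter on dim probes.

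The REH line comes from a human acute lymphoblastic leukemia of B-cell precursors, harbors the ETV6/RUNX1 translocation and has lost its other ETV6 allele. Both groups of 3 arrays are REH cells transduced with a lentiviral short hairpin RNA (shRNA) vector that also encodes GFP, and cells positive for GFP were sorted. In the group called knockdown the shRNA targets the fusion through its ETV6 part. In the group called control the shRNA is a non-targeting one, which the study's methods describe as a second ETV6 hairpin that does not hit the fusion transcript. Replicates are numbered 1 to 3 in each group and are called biological triplicates. Only 1 line and 1 targeting hairpin were used, so effects of the hairpin sequence and of loss of the fusion cannot be told apart.

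NOX2, the protein encoded by CYBB, passes electrons from NADPH across a membrane to oxygen and so makes superoxide. It sits in the membrane with p22phox, the product of CYBA, and stays inactive until cytosolic proteins, among them p47phox (NCF1) and p40phox (NCF4), and a RAC GTPase join it from the cytosol. The complex is best known from neutrophils and macrophages, where its loss causes chronic granulomatous disease, and B cells carry it at lower levels.

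Promoter sequence was available for CYBB, CYBA and NCF1 in the RefSeq-based table (GRCh38.p14). The 250 bases before the start are shown for CYBB, the gene that rose, and NCF1, because both hold the letters GAGGAA, the core of sites for PU.1 (encoded by SPI1), on the reverse strand at a like distance from the start. Capitals mark GAGGAA and CCAAT on either strand. The CYBB window is chrX:37779809-37780058 on the plus strand and the NCF1 window is chr7:74773761-74774010 on the plus strand.
CYBB: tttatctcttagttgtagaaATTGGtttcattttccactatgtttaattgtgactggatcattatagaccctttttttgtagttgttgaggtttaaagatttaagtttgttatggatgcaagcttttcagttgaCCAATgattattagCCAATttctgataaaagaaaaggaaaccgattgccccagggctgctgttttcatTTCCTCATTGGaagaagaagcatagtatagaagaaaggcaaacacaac
NCF1: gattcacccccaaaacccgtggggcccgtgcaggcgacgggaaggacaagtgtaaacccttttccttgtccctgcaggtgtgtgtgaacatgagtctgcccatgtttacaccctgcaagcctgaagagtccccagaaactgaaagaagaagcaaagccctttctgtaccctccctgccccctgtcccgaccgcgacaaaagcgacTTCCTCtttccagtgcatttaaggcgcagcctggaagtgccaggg

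In CYBB the GAGGAA letters lie 48 to 43 bases before the start, directly beside a reverse CCAAT at 42 to 38, and the run TTCCTCATTGG in capitals is the pair read on the plus strand. Further CCAAT letters lie 116 and 102 bases before the start on the plus strand and 230 bases before it on the reverse strand. In NCF1 the GAGGAA letters lie 45 to 40 bases before the start, and no CCAAT was found. The CYBA window, chr16:88651054-88651303 on the minus strand, held neither motif. TGTGGT and TGCGGT, forms of the RUNX core, and TATAAA, the TATA box, were searched on both strands as well and were in none of the 3 windows. Of 35116 promoter windows of this length, 23.6% hold GAGGAA, 32% CCAAT, 11% TGTGGT, 5.84% TGCGGT and 10.7% TATAAA. G and C made up 34% of the CYBB window, 56.4% of the NCF1 window and 73.6% of the CYBA window, against a median of 58% over all windows. These matches describe letters only, since binding was not measured on the arrays.

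Values are normalized log2 intensities, differences are knockdown minus control on that scale, and a probe is said to be called where the Benjamini-Hochberg adjusted p of limma over all 29069 retained probes is under 0.05. The arrays were alike in quality: the share of probes well above background was 45.8% to 50.9%, with control replicate 3 lowest, no probe was saturated, and correlations between arrays ran from 0.986 to 0.996. All 6 arrays shared 1 slide and 1 scan. Control replicates 1 and 2 lay in the first row of the slide, and control replicate 3 and the 3 knockdown arrays in the second. ETV6, the gene the hairpin targets, measured 7.92, 8.05 and 8.37 in control and 7.50, 7.46 and 7.29 in knockdown, which is 1.62-fold lower without overlap (log2 -0.70, SE 0.14, limma adjusted p = 0.0571). That difference is in the labelled direction and missed the threshold, and the other ETV6 probe was not above background on any array. Whether these probes lie in the part of ETV6 kept in the fusion was not examined. The study's own check of the silencing was Western blot and RT-qPCR of the fusion protein and transcript, outside these arrays.

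CYBB, the catalytic subunit, rose. Its probe measured 10.13, 10.37 and 10.37 in control replicates 1 to 3 and 11.39, 11.42 and 11.42 in knockdown replicates 1 to 3. The knockdown arrays stood clear of the control arrays, and they lay closer together (SD 0.02) than the control arrays did (SD 0.14). The means were 10.29 and 11.41, a 2.18-fold difference (log2 1.12, SE 0.10). The same-numbered pairs differed by 1.27, 1.05 and 1.05. Before normalization the raw spot intensity (the median of its pixels) was 1076, 1339 and 1426 in control and 3160, 2569 and 2525 in knockdown. CYBB was called, ranked 18 by size among the 115 probes called higher, and had a larger log2 difference than 99.88% of retained probes. With the slide row as a term, which leaves control replicate 3 as the comparison for the knockdown arrays, the difference was 1.04.

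CYBA, the membrane partner that stabilizes NOX2, was higher by a smaller margin. It measured 13.23, 13.24 and 13.26 in control and 13.54, 13.55 and 13.51 in knockdown, so the groups did not overlap. The means of 13.24 and 13.54 differ 1.23-fold (log2 0.29, SE 0.09), and the probe was not called. The change of CYBB exceeded that of CYBA by 0.83 (SE 0.08) on the log2 scale, and did so in 3 of 3 pairs.

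NCF1, the organizer subunit that carries the other cytosolic proteins to the membrane, was read by 4 probes. The first (A_23_P42746) measured 8.10, 7.71 and 7.68 in control and 8.69, 8.07 and 8.23 in knockdown, a difference of 0.50 (SE 0.18). The second (A_33_P3211432) measured 8.04, 7.62 and 7.54 in control and 8.78, 7.95 and 8.13 in knockdown, a difference of 0.55 (SE 0.23). In both, control replicate 1 lay above knockdown replicate 2, so the groups overlapped.
The third NCF1 probe (A_33_P3224803) measured 6.48, 6.10 and 6.28 in control and 6.68, 6.39 and 6.50 in knockdown, a difference of 0.24 (SE 0.13). The fourth (A_33_P3369393) measured 9.20, 8.77 and 8.76 in control and 10.03, 9.10 and 9.42 in knockdown, a difference of 0.61 (SE 0.24). All 4 probes were higher in knockdown in 3 of 3 pairs, all 4 overlapped between groups, and none was called. Leaving out 1 array at a time gave 0.32 to 0.64, 0.31 to 0.72, 0.14 to 0.33 and 0.35 to 0.81, in the order given. NCF1 has near-identical pseudogene copies, so the share of these signals that comes from NCF1 itself is uncertain, and the 4 probes are readings of the same RNA rather than replicates.

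NCF4, the p40phox subunit that binds a phosphoinositide on phagosomes, measured 12.62, 12.20 and 12.20 in control and 13.00, 12.52 and 12.34 in knockdown. The groups overlapped, with control replicate 1 above knockdown replicates 2 and 3. The difference was 0.28 (SE 0.19), or 1.21-fold, and leaving out 1 array at a time gave 0.09 to 0.42. RAC2, the hematopoietic RAC GTPase, measured 13.77, 13.39 and 13.56 in control and 14.21, 13.95 and 13.77 in knockdown on 1 probe (A_23_P218770; log2 0.40, SE 0.15), where control replicate 1 and knockdown replicate 3 met. On the other probe (A_24_P228717) RAC2 measured 11.59, 11.36 and 11.23 in control and 11.82, 11.75 and 11.62 in knockdown, without overlap (log2 0.33, SE 0.12). None of these 3 probes was called.

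**Figure D1:**
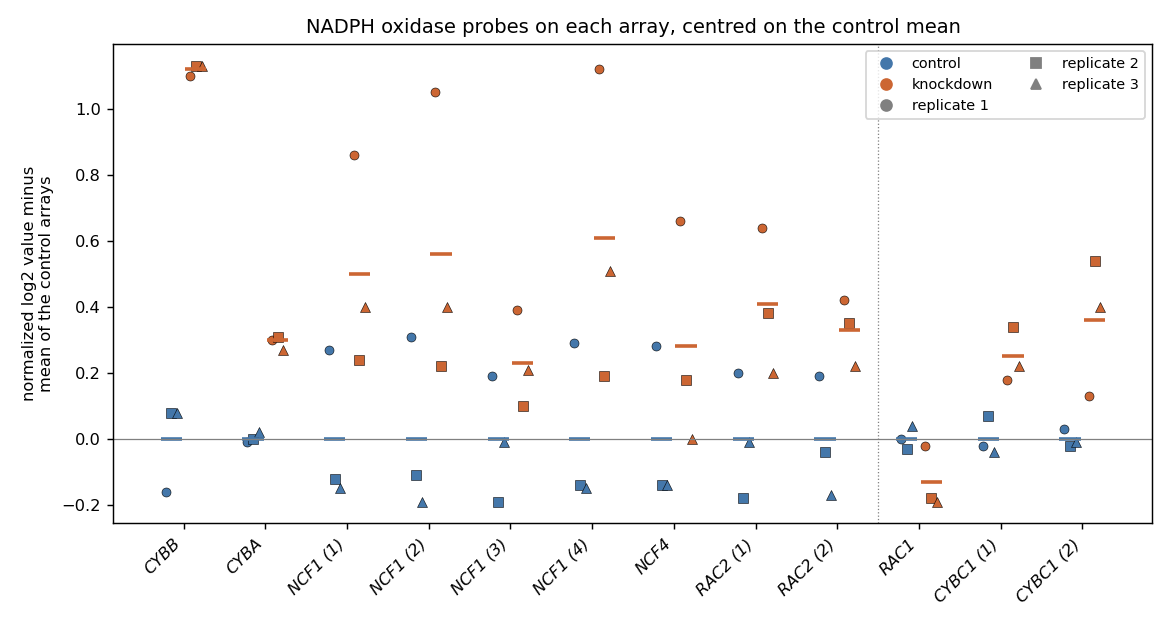
Each point is 1 array, plotted as the normalized log2 value minus the mean of the 3 control arrays, for the 9 probes of the 5 genes (left of the dotted line) and the 3 probes of RAC1 and CYBC1 (right), with group means as short bars and probes of a gene numbered in order of their identifiers. The 3 CYBB knockdown arrays lie together about 1.12 above the control mean, the NCF1 and NCF4 points of replicate 1 lie above those of replicates 2 and 3 in both groups.

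Across the 5 genes, 1 of 9 probes was called, the CYBB probe, where 0.396% of all retained probes were called higher and 1.55% in either direction. All knockdown arrays were above all control arrays for 3 of 9 probes (CYBB, CYBA and 1 RAC2 probe), against 8.78% of retained probes. All 9 probes had a difference over 0 and all 9 were higher in 3 of 3 pairs, with a median log2 difference of 0.40, and 0.37 over the 8 probes without CYBB. Over all retained probes the median was -0.004 and 49.1% were over 0. Because the genes were selected on this contrast, these counts are a description, and the direction of the members is not independent of how they were picked.
The change of CYBB was larger than that of each other member probe in 3 of 3 pairs. It exceeded the NCF1 probes by 0.52 (SE 0.36) to 0.89 (SE 0.21), NCF4 by 0.84 (SE 0.30), and the RAC2 probes by 0.72 (SE 0.23) and 0.79 (SE 0.19), on the log2 scale. For the NCF1 probes A_33_P3211432 and A_33_P3369393 the array-wise difference from CYBB overlapped between groups. The SEs of these gaps, and of the gap from CYBA, were computed from array-wise differences without pairing and not by limma. With the replicate number as a block, which raises the calls over all probes to 3.03% in either direction and 1.01% higher, CYBB was still the 1 member probe called.

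Outside the 5 genes, RAC1, the widely expressed RAC GTPase, measured 12.34, 12.31 and 12.38 in control and 12.32, 12.16 and 12.15 in knockdown, a log2 difference of -0.13 (SE 0.10, limma adjusted p = 0.646) that turned to 0.25 under scaling to the spike-in probes. CYBC1, a chaperone needed for assembly of the membrane pair, measured 11.20, 11.29 and 11.18 in control and 11.40, 11.56 and 11.44 in knockdown on 1 probe (log2 0.24, SE 0.10, limma adjusted p = 0.368). Its other probe gave 9.89, 9.84 and 9.85 against 9.99, 10.40 and 10.26 (log2 0.36, SE 0.12, limma adjusted p = 0.273). Neither CYBC1 probe overlapped between groups and neither was called.

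**Figure D2:**
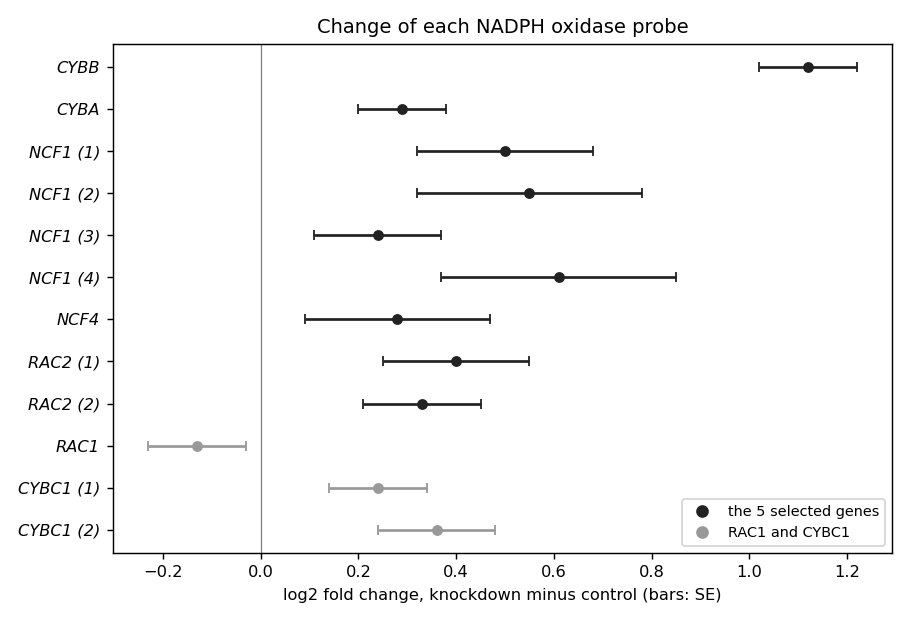
Log2 fold change (knockdown minus control, x axis) of each probe of the 5 selected genes (black) and of RAC1 and CYBC1 (grey), with the standard error of the limma fit as bars, n = 3 arrays a group. CYBB stands at 1.12, the other 8 member probes lie between 0.24 and 0.61, and RAC1 lies at -0.13.

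The members also differed between replicates, a measure that the choice of genes did not use. This contrast was known from earlier results of these data. Comparing replicate 1 with replicates 2 and 3, with group as a term, 4 of 9 member probes were called, 3 of NCF1 and the NCF4 probe, where 4.66% of all retained probes were called. The 3 NCF1 probes read the same RNA, so these calls are not 4 separate members. The NCF1 probes were higher in replicate 1 by 0.47 (SE 0.09, limma adjusted p = 0.0395), 0.60 (SE 0.11, limma adjusted p = 0.0297) and 0.60 (SE 0.13, limma adjusted p = 0.0456), and the dimmest NCF1 probe by 0.26 (limma adjusted p = 0.163). NCF4 was higher in replicate 1 by 0.50 (SE 0.10, limma adjusted p = 0.0373). The RAC2 probes differed by 0.33 and 0.21 (limma adjusted p = 0.114 and 0.245), CYBA by -0.01 (limma adjusted p = 0.977) and CYBB by -0.14 (limma adjusted p = 0.422). On the 4 NCF1 probes, in the order given above, the replicate difference was 0.47, 0.60, 0.26 and 0.60 where the group difference was 0.50, 0.55, 0.24 and 0.61, so both were of a like size. For NCF4 it was 0.50 against 0.28, and for CYBB -0.14 against 1.12.

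**Figure D3:**
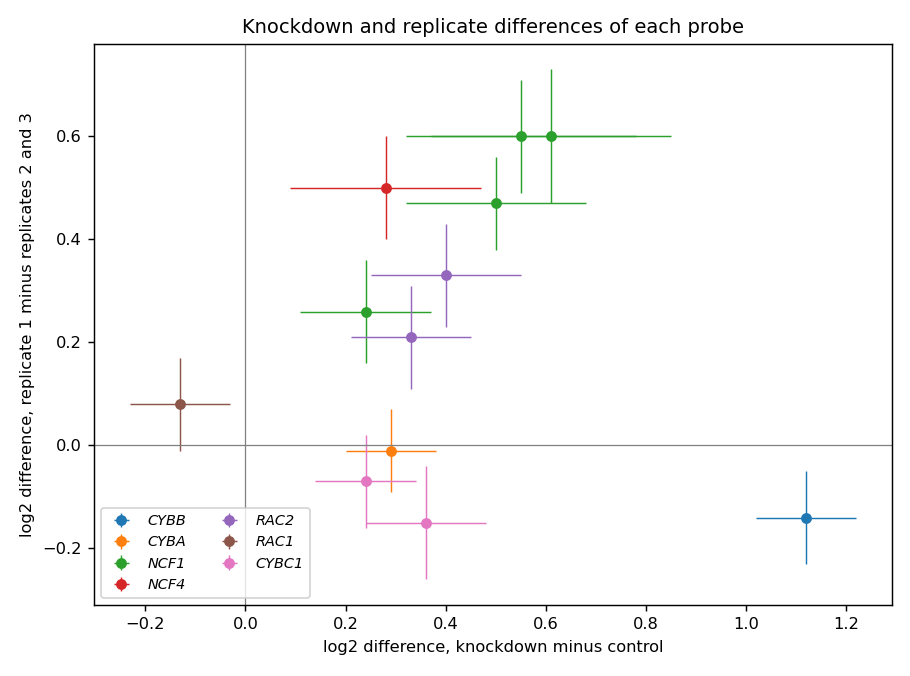
Each point is 1 probe, with the knockdown minus control log2 difference on the x axis, the replicate 1 minus replicates 2 and 3 log2 difference on the y axis, and standard errors as bars. CYBB lies far right near 0 on the y axis (1.12, -0.14), CYBA lies at 0.29 and -0.01, and the NCF1, NCF4 and RAC2 probes lie above 0 on the y axis.

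Outside the selected genes, 2 of 116 retained probes of the pathway lists were called (1.72%), near the 1.55% called over all retained probes. The 116 include the probes of RAC1 and CYBC1, which belong to the complex or its assembly. Among 17 genes for kinases and lipid enzymes that activate NOX2 (19 retained probes, median log2 difference 0.18), 1 probe was called higher and 1 lower. PRKCD, a protein kinase C that phosphorylates p47phox, rose from 8.13, 8.31 and 8.38 to 8.86, 8.86 and 8.91 (log2 0.61, SE 0.10, limma adjusted p = 0.0315). PRKCA, another protein kinase C, fell from 10.27, 10.52 and 10.20 to 9.74, 9.66 and 9.69 (log2 -0.63, SE 0.11, limma adjusted p = 0.0389). Neither gene's groups overlapped. Leaving out any 1 of the 6 arrays ended both calls, with differences of 0.54 to 0.66 for PRKCD and -0.70 to -0.54 for PRKCA, as did the slide row as a term (0.50 and -0.50).

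Of the exchange factors and inhibitors that switch RAC on and off (14 genes, 19 retained probes, median 0.17), none was called. VAV3, an exchange factor downstream of tyrosine kinases, measured 13.30, 13.23 and 13.05 in control and 12.59, 12.63 and 12.76 in knockdown (log2 -0.53, SE 0.11, limma adjusted p = 0.0668). BCR, which inactivates RAC, measured 9.47, 9.48 and 9.25 in control and 9.89, 9.87 and 10.03 in knockdown on the probe with the lowest p (log2 0.53, SE 0.11, limma adjusted p = 0.0668). Neither overlapped between groups. Of 10 other small GTPases (15 retained probes, median -0.06) none was called, with RHOB at 0.55 (limma adjusted p = 0.219) and RAC3 at 0.47 (limma adjusted p = 0.302).

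Of 10 genes for the other NADPH oxidases and their partners, 3 had a retained probe, and none of those was called: DUOX1 at -0.53 (limma adjusted p = 0.398), NOXA1 at 0.33 (limma adjusted p = 0.222) and DUOXA1 at -0.07 (limma adjusted p = 0.952). NOX3 and NOX4 were not well above background on any array.
No gene that removes superoxide or peroxide was called either (24 genes on the array, 25 retained probes, median 0.01). SRXN1, which repairs peroxiredoxins, was at 0.41 (limma adjusted p = 0.207), and GCLC, the catalytic subunit for the first step of glutathione synthesis, at -0.34 (limma adjusted p = 0.327). The 11 genes that supply NADPH had 10 retained probes with a median of 0.10. Of these, 9 of 10 were over 0 and none was called, with MTHFD1, a folate enzyme, at 0.32 (limma adjusted p = 0.356). The channels that balance charge beside NOX2 (3 genes, 4 retained probes, median 0.02) held no call, with CLCN3 at -0.25 (limma adjusted p = 0.324) and CLIC1 at -0.13 (limma adjusted p = 0.678), both of which turned over 0 under spike-in scaling.

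**Figure D4:**
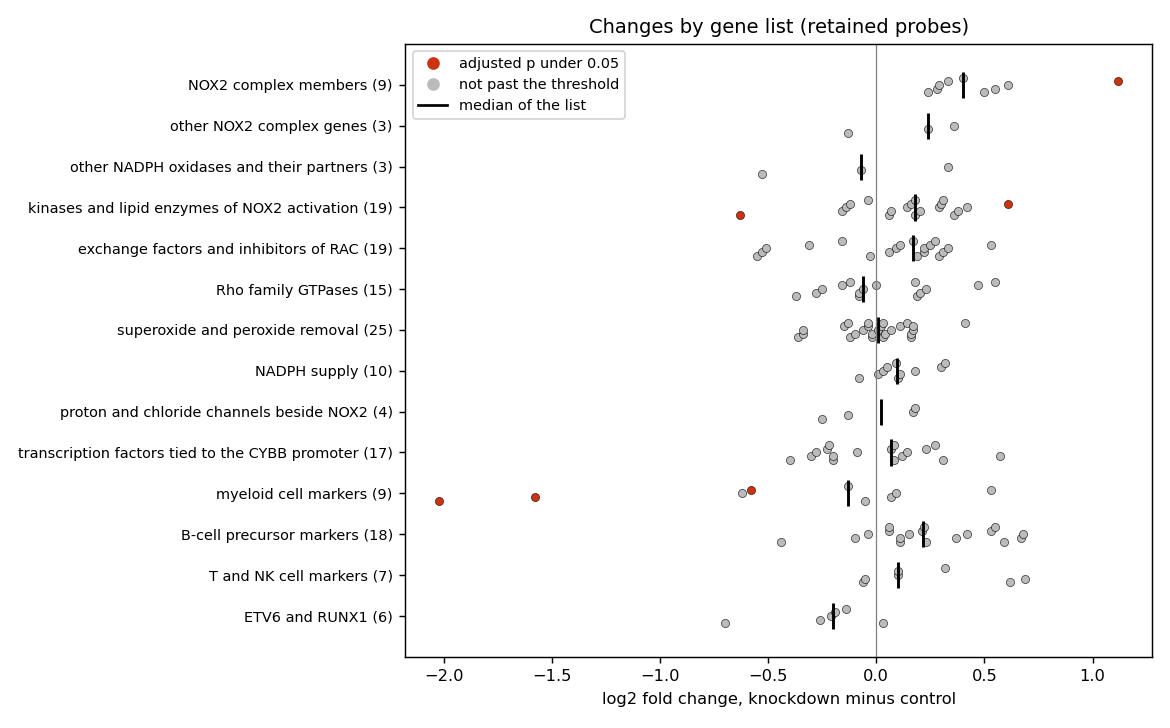
Log2 fold change (knockdown minus control, x axis) of the retained probes of each gene list (y axis, number of probes plotted in parentheses), with probes called at an adjusted p under 0.05 in red, others in grey and the list's median as a bar. CYBB is the called probe of the complex, PRKCD and PRKCA are called on opposite sides of 0, and the 3 called myeloid probes lie below 0.

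The transcription factors tied in the literature to the CYBB promoter (12 genes, 17 retained probes, median 0.07) held no call. SPI1, whose product PU.1 binds the GAGGAA core shown above, measured 11.01, 11.10 and 11.14 in control and 11.92, 11.55 and 11.48 in knockdown, without overlap (log2 0.57, SE 0.13, limma adjusted p = 0.111, and 0.0902 with the block). HOXA9 measured 10.37, 10.24 and 10.06 in control and 9.97, 9.85 and 9.65 in knockdown on the probe with the lowest p (log2 -0.40, SE 0.13, limma adjusted p = 0.247). Binding of these factors was not measured.

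Since the oxidase is strongest in myeloid cells, markers of the cells a culture could hold were set beside it. Of 14 myeloid markers on the array, 6 were well above background on all 6 arrays, and CD33, ELANE, S100A8 and S100A9 were so on none. Their summed linear level was 17725 to 20931 in control and 4758 to 7360 in knockdown. MPO made up 79.6% to 85.1% of that sum in control and 68.6% to 70.5% in knockdown, and without MPO and CSF3R the sum was 979 to 1241 in control and 886 to 1217 in knockdown, so the groups then overlapped. Of 9 retained myeloid probes, 3 were over 0 and 6 below (median -0.13). Of the 9, 3 were called, all lower, where 1.55% of all retained probes were called in either direction. MPO, the granule peroxidase that uses hydrogen peroxide, fell from 14.02, 13.97 and 13.86 to 12.30, 11.68 and 11.81 (log2 -2.02, SE 0.16, limma adjusted p = 0.0013). CSF3R, the receptor of granulocyte colony-stimulating factor, fell from 11.57, 10.84 and 10.81 to 10.09, 9.20 and 9.18 (log2 -1.58, SE 0.29, limma adjusted p = 0.0438), and CD68, a lysosomal protein of macrophages, fell by 0.58 (SE 0.10, limma adjusted p = 0.0318). Leaving out any 1 array other than knockdown replicate 1 ended the calls of CSF3R (-1.71 to -1.33) and CD68 (-0.60 to -0.53), and so did the slide row as a term (-1.32 and -0.58). MPO was called in all of these fits.

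Of 13 B-cell precursor markers, 12 were well above background on all 6 arrays. Their summed linear level was 241039 to 251060 in control and 256462 to 333429 in knockdown. None of 18 retained probes was called (median 0.22), with CD22 at 0.67 (limma adjusted p = 0.0601) and CD79B at 0.55 (limma adjusted p = 0.179). With the block 4 of the 18 were called higher, where 1.01% of all retained probes were called higher. They were CD22 (limma adjusted p = 0.0339), CD79B (limma adjusted p = 0.0455) and both IGLL1 probes (limma adjusted p = 0.0178 and 0.0468), IGLL1 being named after its values were seen. Of 9 T and NK cell markers on the array, CD3E, CD3G, GNLY and KLRD1 were well above background on no array, and the summed level was 5652 to 5979 in control and 6214 to 6432 in knockdown. CD4, named after its values were seen, made up most of that sum. It had means of 12.34 in control and 12.44 in knockdown (log2 0.10, SE 0.09, limma adjusted p = 0.312). No T or NK probe was called among 7 retained (median 0.10), the 2 with the lowest p being NKG7 at 0.62 (limma adjusted p = 0.148) and CD3E, which has no level above background. In such bulk samples fewer cells of a type and less RNA per cell cannot be told apart, and the part of these marker shifts in the change of CYBB was not tested.

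The genes whose 6 values most resembled those of CYBB were found by the root mean square difference after centring each probe on its control mean, over 18057 candidate probes. BLK, a B-cell tyrosine kinase of the SRC family, was nearest (difference 0.0821 on the log2 scale, change 1.15), with 11.15, 11.24 and 11.18 in control and 12.36, 12.41 and 12.26 in knockdown. CAPG, an actin-capping protein, followed at 0.0890 (change 1.19), and its other probe changed by 1.01. GAS7 followed at 0.105 (change 1.17). SMC1A, a cohesin subunit, came at 0.131 (change 1.17), but its other probes changed by -0.17 and -0.27. FCRLA, an Fc receptor-like protein of B cells, came at 0.134 (change 1.05), and its other probe changed by 0.24 (SE 0.36). This ranking rests on 6 arrays and describes likeness of values only.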

How the data were processed

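RNA of 6 samples of REH cells (3 control, 3 knockdown) was hybridized to 1-color Agilent arrays with 62976 spots, of which 34134 catalogue and 23042 custom probes remained after control spots were left out. The authors extracted spot intensities with Agilent Feature Extraction 10.7.1.1, per the file headers, and the deposited scanner files hold raw median and processed intensities that were not normalized between arrays. They also deposited normalized log2 values for 27869 probes (variance stabilization, background subtraction and a filter, per the methods), which were used as an alternative and correlated at 0.9991 with the values used here.

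Here the raw median intensities were variance-stabilized (a rewritten VSN, least squares quantile 0.9, Python 3.11.15, numpy 2.4.6), 907 outlier spots were left out, and spots of a probe were averaged. Probes were retained where the value exceeded 1.1 times the 0.95 quantile of the normalized values of 308 negative control spots on at least 60% of a group's arrays. limma 3.58.1 in R 4.3.3 compared the groups (lmFit, eBayes, two-sided, no block), with Benjamini-Hochberg adjustment over all 29069 retained probes and a threshold of 0.05. On simulated data of this comparison (28997 probes, 200 changed) 81.5% of changed probes were called and 2.4% of calls were false. Whether these shares hold for differences as small as those of the members other than CYBB, or with replicate 1 standing apart, was not tested. Array precision is limited by 3 arrays a group. An exact permutation test of 3 against 3 cannot go below 0.1, so none is given. Probes were named through RefSeq accessions (GRCh38.p14 table), which matched 25728 of 34134 catalogue probes (75.4%), and a promoter window was found for 3 of the 5 members.

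Deviations from the group means correlated at 0.396, 0.255 and 0.19 between arrays numbered 1, 2 and 3. Arrays 2 and 3 of opposite groups correlated nearly as well (0.154 and 0.179), while arrays numbered 1 correlated with the others at -0.306 to -0.245, so replicate 1 is what mainly stands apart. The numbers were taken as pairs because all 3 same-numbered correlations were over 0.1, and a fit with the replicate number as a block was run as an alternative. The members, gene lists and tests were chosen with earlier results of these data known. Genes named are all member probes, RAC1, CYBC1, ETV6, up to 4 called genes of each other list by size (or the 2 with the lowest p) and the 5 genes most like CYBB; some genes of the lists are not reported here. Alternatives were another background correction, scaling, filter, probe averaging, variance prior, block, slide row and leaving out each array.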

Additional observations from a re-analysis of the deposited data

How the results depend on the processing

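CYBB was called under all 16 alternatives, with log2 differences of 1.04 to 1.50, and no member probe changed sign under any. The number of probes called, 452, became 867 under scaling to 7 spike-in probes, 881 with the replicate block, 224 with no filter on dim probes, 245 with the slide row as a term and 177 to 479 when 1 array was left out. Spike-in scaling moved the median difference of all probes to 0.373 and the calls from 115 higher and 337 lower to 722 and 145, and the slide row gave 20 and 225. Against that median, 4 member probes rather than 1 were called under spike-in scaling, CYBB at 1.50 and 3 NCF1 probes at 0.88, 0.93 and 0.98, and the sign turned for RAC1 (0.25), GCLC (0.04), CLCN3 (0.13), CLIC1 (0.25) and 1 RUNX1 probe (0.17, from -0.21). All these turned values lie below the shifted median. The 2 calls among the pathway lists became 5 under spike-in scaling, 4 with normexp background correction and with the intensity trend and robust prior, 1 with the slide row, 0 with the processed signal at its 75th percentile and with no filter, and 0 to 1 when 1 array was left out. The replicate block changed no call of a member, and beyond the calls of B-cell markers given above it changed none among the genes named here. The alternative that starts from mean spot intensity was not run, since the mean signal was not among the columns analysed here. The causes of these shifts were not tested.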
